A study of Mus musculus with 12 samples.

Results

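Peaks of lysine crotonylation were described at the 10 mouse genes Fos, Fosb, Fosl2, Jun, Junb, Jund, Egr1, Egr2, Egr3 and Egr4, chosen by name out of 21887 protein-coding genes. For each gene, every peak that touched the gene body or the 50 kb beyond either end (its window) was taken, which gave 14 of the 16243 peaks of the learning list and 153 of the 332168 peaks of the homecage list. Both lists are ChIP-seq peaks, regions of DNA recovered with chromatin by a pan-Kcr antibody, from dorsal hippocampus of C57BL/6J mice. The antibody binds crotonylated lysine in any protein. The learning mice had been trained in spatial object recognition, a task in which an animal learns where objects stand, and the homecage mice had stayed in their cages. There was 1 antibody library per condition. Sex, age, the time from training to dissection and any pooling of animals are not given for these libraries in the sources used here. Of the 12 samples in the series, 10 were not analysed here: 8 single-nucleus and 2 input libraries. The files hold the position and width of each peak and no read count or peak strength, so depth is unknown, no p-value is given, and a gene without a peak is a gene at which none was listed.

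The Fos and Jun proteins pair through leucine zippers to form AP-1, a transcription factor that binds the site TGANTCA. Egr proteins bind GC-rich sites through zinc fingers. In hippocampal neurons most of these genes are immediate early genes, transcribed within minutes of synaptic activity through CREB at cAMP response elements and through SRF and its ETS partners at serum response elements. Fos, Egr1 and their relatives are widely used to mark neurons that were active during learning, and distal enhancers on either side of Fos take part in its response to activity. Histone crotonylation, written by p300 and CBP among others, is found at active promoters and enhancers.

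Promoter sequences are shown for 3 genes as examples of how peaks lay near a start: Fosl2, the only member with a matched promoter inside a peak; Junb, with peaks on both sides; and Fos, with none for several kilobases. Each line gives the 250 bases before the annotated start (RefSeq, GRCm38.p6), 5′ to 3′ on the gene's strand, and capitals mark matches to the motifs searched. The Fosl2 bases (chr5:32136222-32136471, plus strand) lay wholly inside a homecage peak. The Junb bases (chr8:84978749-84978998, minus strand) lay 88 bp from the nearest homecage peak and 859 bp from the nearest learning peak. The Fos bases (chr12:85473640-85473889, plus strand) lay 4773 bp from the nearest homecage peak and 41550 bp from the nearest learning peak.
Fosl2: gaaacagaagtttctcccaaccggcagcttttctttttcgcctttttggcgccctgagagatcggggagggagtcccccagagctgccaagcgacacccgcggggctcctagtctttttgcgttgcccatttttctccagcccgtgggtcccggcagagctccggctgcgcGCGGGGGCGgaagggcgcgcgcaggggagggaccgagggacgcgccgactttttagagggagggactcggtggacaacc
Junb: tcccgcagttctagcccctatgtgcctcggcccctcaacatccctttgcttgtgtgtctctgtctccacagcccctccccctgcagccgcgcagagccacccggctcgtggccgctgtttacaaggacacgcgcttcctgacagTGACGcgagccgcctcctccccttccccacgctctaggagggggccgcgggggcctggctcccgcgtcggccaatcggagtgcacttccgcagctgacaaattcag
Fos: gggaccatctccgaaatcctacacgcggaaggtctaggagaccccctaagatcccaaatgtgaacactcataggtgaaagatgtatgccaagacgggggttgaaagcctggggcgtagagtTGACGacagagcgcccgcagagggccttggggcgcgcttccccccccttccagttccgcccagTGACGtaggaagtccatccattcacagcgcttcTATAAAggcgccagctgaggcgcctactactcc

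The motifs were the cAMP response element TGACGTCA and its part TGACG, the AP-1 site TGANTCA, the Egr site GCGTGGGCG and its variant GCGGGGGCG, the TATA box TATAAA and the CArG box, the core of the serum response element, all on both strands. RefSeq promoters were matched for 8 members, with 12 annotated starts in all, 5 of them in Egr2. Egr1 and Egr3 had no entry. TGACG was in 7 of the 12 promoters, belonging to Fos, Fosb, Junb, Egr2 and Egr4, and in 17.8% of all 32851 promoters. The Fos promoter held it at -129 and -66 from the start, followed by TATAAA at -33, a motif in 12.4% of all promoters. GCGGGGGCG was in the Fosb and Fosl2 promoters and in 2.57% of all. The CArG box was in 4 of the 5 Egr2 promoters and in 1.47% of all. No member promoter held TGACGTCA (1.55% of all), TGANTCA (6.75%) or GCGTGGGCG (0.536%) within these 250 bases. The member promoters were richer in G and C than promoters at large, with a median of 61.4% against 52.4%, and these shares are not adjusted for that. Overlapping Egr2 promoters share bases, and a match is a description of the sequence.

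Nearly all of the 10 genes had crotonylation peaks nearby in both conditions, as most genes did. A learning peak lay in the window of 8 members, all but Jun and Egr4, against 59.2% of protein-coding genes. With peaks of at least 500 bp that count was 2, Fos and Jund. That width is above the upper quartile of the whole learning list (432 bp), and no share over all genes was computed at it. A homecage peak lay in the window of all 10, against 96.1%. The number per window ran from 0 to 3 with a median of 1.5 in the learning list, where the median gene had 1, and from 8 to 22 with a median of 17 in the homecage list, where the median gene had 17. Over the 10 windows the homecage list thus held 10.9 times as many peaks as the learning list (exact 95% interval 6.32 to 20.5, counting error only), compared with 18.2 over the windows of all protein-coding genes and 20.7 over the chromosomes. The interval held the first of these values and not the second. With a flank of 10 kb the ratio over the members was 6.29, from 44 homecage and 7 learning peaks. It was 10.4 with a flank of 100 kb and 7.22 with only peaks nearest to the member. With peaks of at least 500 bp it was 17.3, from 52 homecage and 3 learning peaks. No ratio over all genes was computed at these settings, so these values are not set against 18.2 or 20.7.

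**Figure D1:**
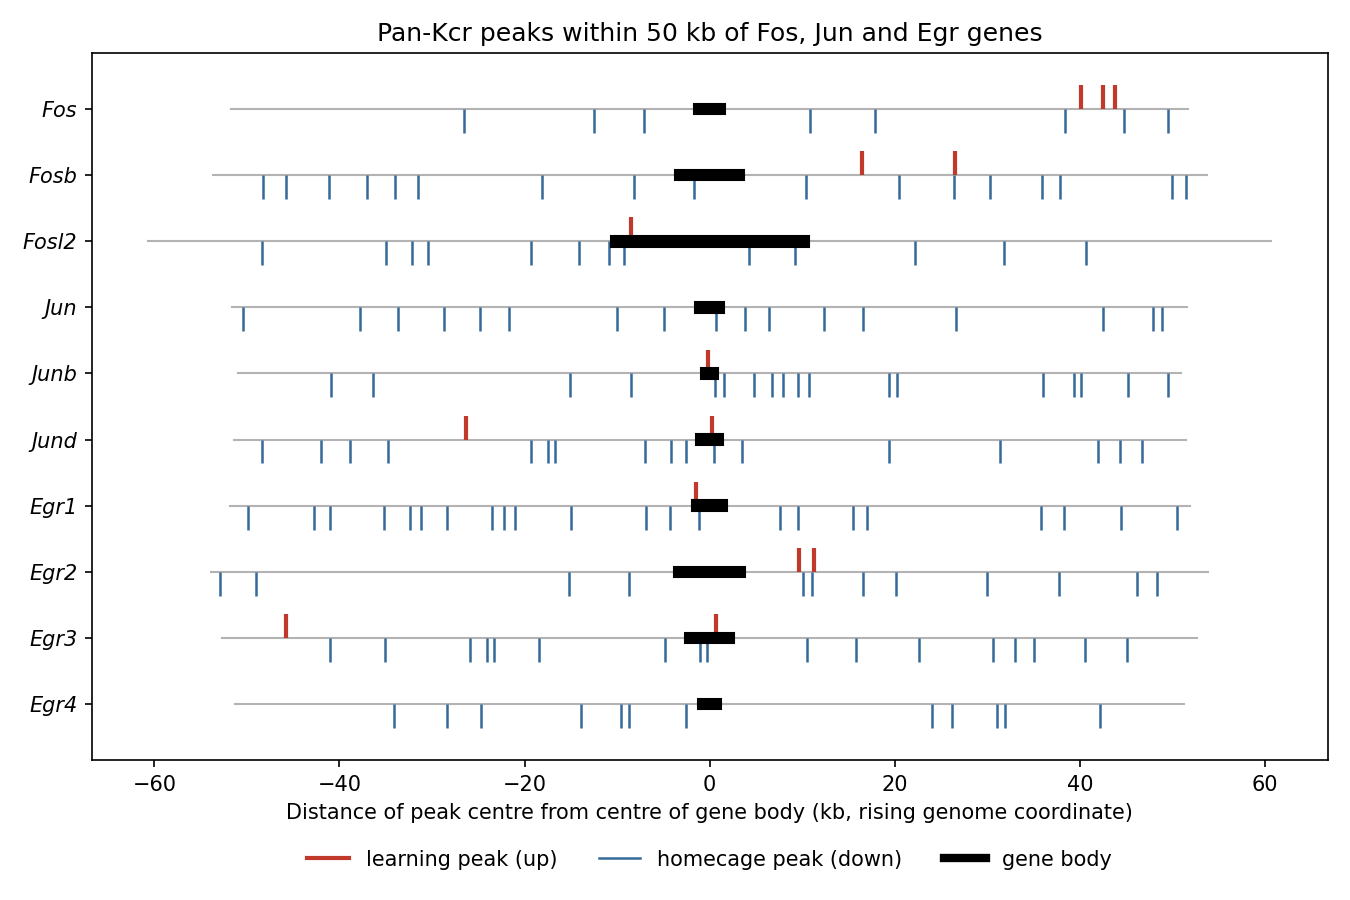
Position of every pan-Kcr peak in the windows of the 10 genes, 1 row per gene. The x axis is the distance in kb from the centre of the gene body along the genome, black bars are gene bodies, red ticks pointing up are the centres of the 14 learning peaks and blue ticks pointing down those of the 153 homecage peaks. Learning peaks sit on the bodies of 5 genes, Fos has its 3 far to one side, and Jun and Egr4 have none.

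Inside the gene bodies, a learning peak was listed at Fosl2, Junb, Jund, Egr1 and Egr3, 5 of 10 members (50%, exact 95% interval 18.7 to 81.3%, counting error only). The members were chosen by name with earlier results of these data known, so this interval is not a test against the shares below. Across protein-coding genes, 24.8% had a learning peak in the body. The members are short, 1840 to 21369 bp, and among genes no longer than the longest member the share was 12.9%. Among autosomal genes within the members' length range it was 16.3%, and 15.0% had both a learning and a homecage peak in the body, as the same 5 members did. The homecage list had a peak in the body of 7 members, all but Fos, Egr2 and Egr4, against 76.9% of all genes, 62.4% of genes no longer than the longest member and 75.7% of autosomal genes in the length range. At the gene start (1 kb on either side, or either gene end for Egr1 and Egr3), Junb and Egr1 had a learning peak, 2 of 10 against 16.2% of genes. Fosl2, Jun, Junb, Jund and Egr1 had a homecage peak there, 5 of 10 against 53.1%. Both lists had one at Junb and Egr1, against 14.0% of genes. The learning counts rest on narrow peaks, as does the whole learning list, where the upper quartile of width was 432 bp. With peaks of at least 500 bp, only Jund had a learning peak in its body, so that the count went from 5 to 1. No member then had one at its start. This cut removes most of the learning list, and no share over all genes was computed at it. Within 3 kb of a start the learning count was 5, and the share over all genes was not computed for that distance. Of the 5 body peaks, those of Fosl2 and Egr3 were 147 and 146 bp wide, at or next to the 146 bp minimum of that list.

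**Figure D2:**
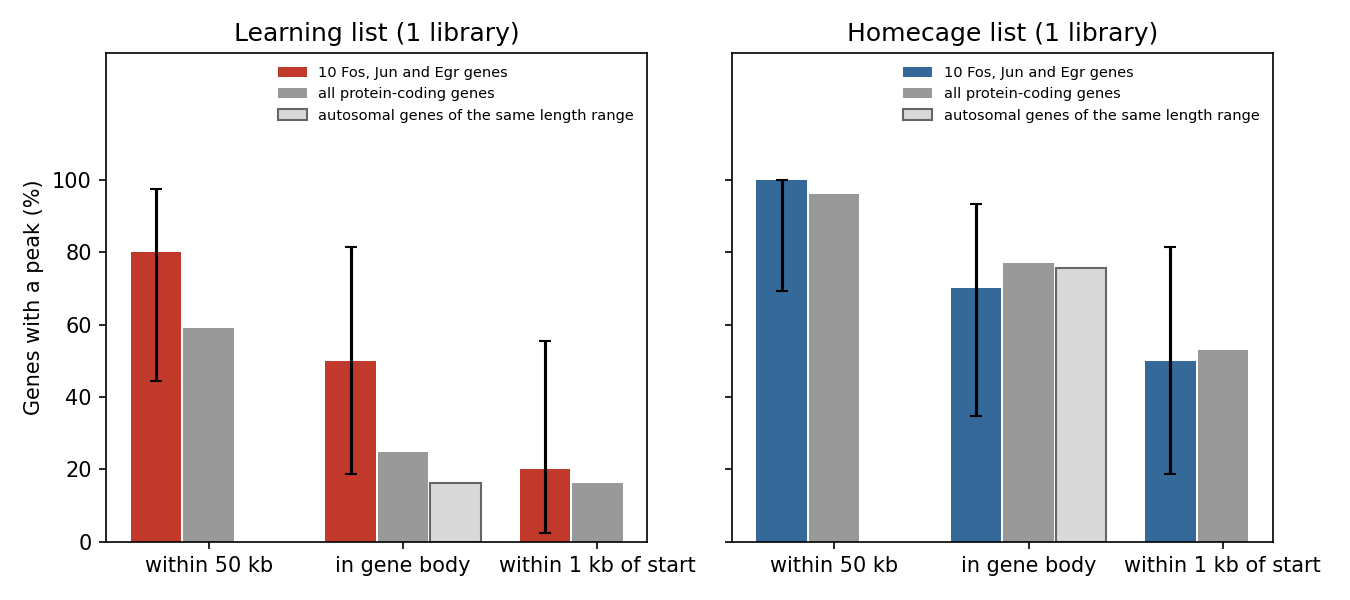
Share of genes (y axis, %) with a learning peak (left) or homecage peak (right) within 50 kb, in the gene body or within 1 kb of a start. Coloured bars are the 10 members with exact 95% intervals for counting error, dark grey bars all 21887 protein-coding genes, and light grey bars autosomal genes in the members' length range, shown for bodies only. The learning body share is 50% against 24.8% and 16.3%, and the homecage body share 70% against 76.9% and 75.7%.

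Fos encodes the founding member of its family and the most used marker of recently active neurons. Its body (chr12:85473890-85477274) held no peak of either list, and the nearest homecage peak lay 5023 bp upstream. The learning list had 3 peaks, all downstream, at 38165, 40485 and 42030 bp from the 3′ end of the gene, with widths of 525, 698 and 156 bp. They covered 1.33% of the window, more than in 96.0% of protein-coding genes and the most among the 10 members. A count of 3 or more learning peaks was found for 14.6% of genes, a threshold set after the value for Fos was seen. The homecage list had 8 peaks there, from 161 to 800 bp wide (the widest 47470 bp downstream), which covered 3.96% of the window, the least among the members. The 3 learning peaks stood clear of the homecage peaks, with gaps of 1262, 1607 and 604 bp, and the homecage peaks next to them (chr12:85513728-85514177 and chr12:85520065-85520707) stood on the outer sides of the group. The group lay in no annotated gene, and the next protein-coding gene after Fos was Jdp2, 79195 bp beyond the last peak. Fos thus stood first of the 10 genes in learning cover and last in homecage cover. Without replicates neither place can be set against a spread.

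Fosb, whose splice form ΔFosB accumulates with repeated activity, had 2 learning peaks, both upstream of its start. The first (chr7:19322651-19323006, 356 bp) lay 12532 bp from the gene body, with the nearest homecage peak 3484 bp away. The second (chr7:19332693-19333164, 472 bp) lay 22574 bp from the body, closer to the DNA repair gene Ercc1, and overlapped a 284 bp homecage peak by 253 bp. It was the single shared pair in which the learning peak was the wider one. In the homecage list 17 peaks were present, 1 of them inside the gene (chr7:19304273-19305136, 864 bp). These covered 8.83% of the window, the most among the members, where the median gene had 5.42%. The window also holds 7 other protein-coding genes, and the widest peak, 1762 bp, lay in Vasp, an actin regulator. Only 3 of the 17 had Fosb as the nearest protein-coding gene.

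Fosl2 encodes Fra-2, a Fos relative without the strong transactivation domain of Fos. It is the longest member (chr5:32136472-32157840) and had 4 homecage peaks in its body, more than any other member. The widest, 1227 bp (chr5:32135614-32136840), covered the start and all of the promoter bases printed above. The others were 147, 294 and 512 bp wide. The widest outside the body, 1001 bp, lay 10952 bp downstream. Its single learning peak (chr5:32138592-32138738, 147 bp) lay 2120 bp into the gene, 609 bp from the nearest homecage peak. Cover of the window was below the gene median in both lists, 0.121% against 0.159% for learning and 4.49% against 5.42% for homecage.

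Jun, the main partner of Fos in AP-1, had no learning peak in its window. The nearest lay 82104 bp away and was 446 bp wide. Its homecage peaks numbered 17 and covered 7.59% of the window. A 603 bp peak lay in the body (chr4:95050979-95051581), and a 1370 bp peak (chr4:95053758-95055127) lay 1535 bp upstream of the body in Junos, a long noncoding RNA gene that begins beside Jun. There are no other protein-coding genes in this window.

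Junb and Jund, both on chromosome 8, had learning peaks inside their bodies. Junb, the activity-induced member of the pair, had 1 learning peak (chr8:84977513-84977889, 377 bp) within its 1840 bp body. Its homecage list held 18 peaks, with a 217 bp peak in the body 412 bp from the learning peak and a 512 bp peak 338 bp beyond the start. Its widest, 1053 bp, lay 8109 bp upstream, nearest to Hook2. Jund, which cells express more steadily than the other Jun genes, had a 707 bp learning peak (chr8:70699120-70699826), the widest of the 14. It lay wholly inside a 1250 bp homecage peak (chr8:70699047-70700296). A second homecage peak of 1376 bp ended 457 bp before the gene, and the widest of the others, 723 bp, lay 32920 bp upstream. The other Jund learning peak, 179 bp wide, lay 24794 bp upstream and 286 bp from Lsm4, an RNA-processing gene, 6800 bp from the nearest homecage peak. The windows of Junb and Jund hold 8 and 5 other protein-coding genes, so that 3 of 18 and 4 of 17 homecage peaks had the member as nearest gene.

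**Figure D3:**
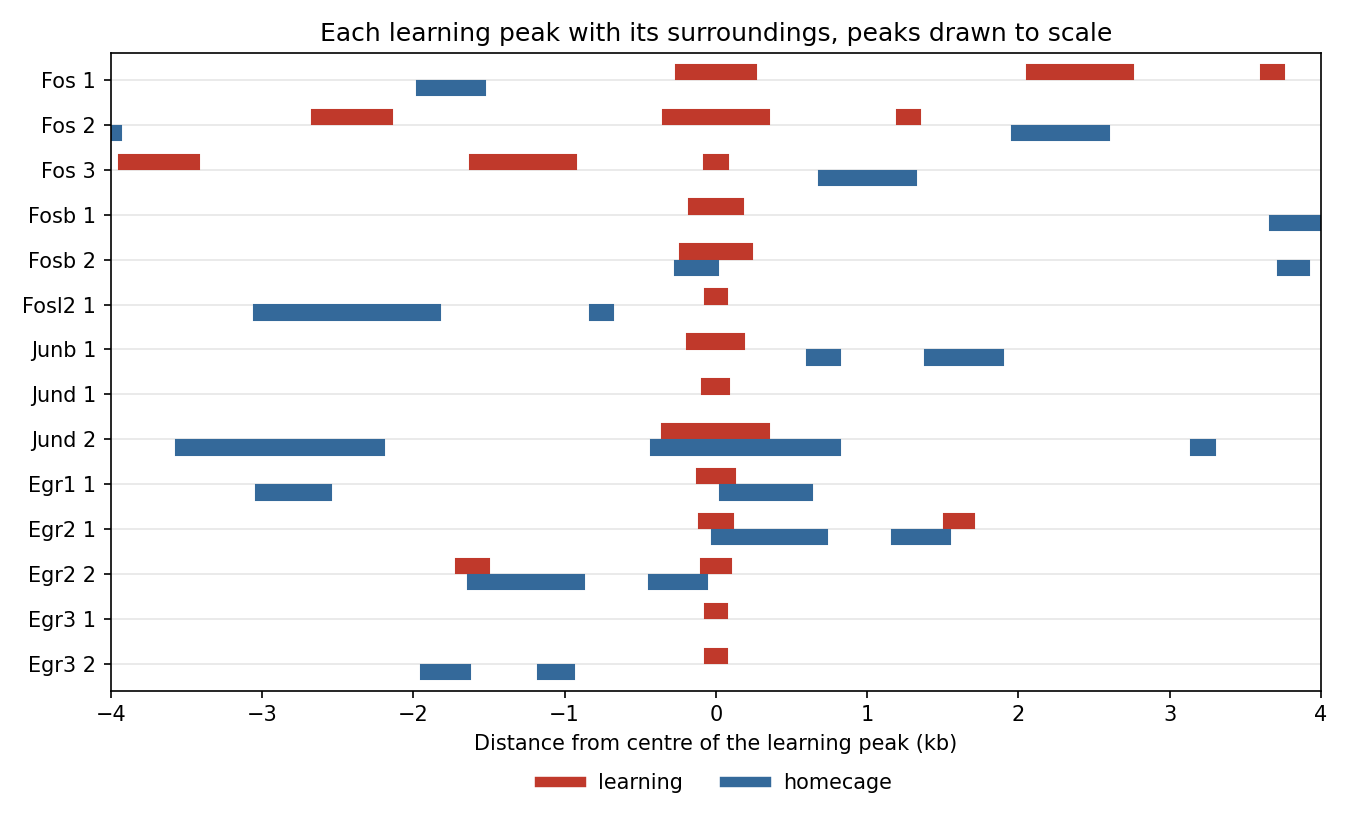
Each of the 14 learning peaks (1 row each, named by gene and numbered by position) with all peaks around it, drawn to scale. The x axis is the distance in kb from the centre of the row's learning peak, red bars are learning peaks and blue bars homecage peaks. In 5 rows, Fosb 2, Jund 2, Egr1 1, Egr2 1 and Egr2 2, the central red bar overlaps a blue one, and in the middle Fos row the 3 red bars stand between 2 blue ones.

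Egr1, also known as Zif268 and required for lasting hippocampal potentiation, had the most homecage peaks of the 10 genes, 22, covering 8.61% of the window. It had 1 learning peak (chr18:34861429-34861682, 254 bp), which began 222 bp inside the lower-coordinate end of the gene body (chr18:34861207-34864956). The homecage peak in the body (chr18:34861580-34862188, 609 bp) overlapped it by 103 bp. The widest homecage peak, 865 bp, lay 40485 bp away in Kdm3b, a histone demethylase gene, and 7 of the 22 peaks had Egr1 as nearest protein-coding gene.

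Egr2, known for its role in myelination as well as in neurons, and Egr3 and Egr4, relatives induced by activity, had less homecage cover than Egr1: 5.20%, 5.95% and 5.81%. Egr2 had no peak of either list in its body (chr10:67534469-67542188). Its 2 learning peaks, 220 and 199 bp wide, lay 5711 and 7330 bp downstream, in and 563 bp beyond the neighbouring gene Ado, which encodes a thiol dioxygenase. Both overlapped homecage peaks, of 764 and 382 bp, by 137 and 40 bp. The widest of its 12 homecage peaks, 1068 bp, lay 43895 bp downstream. The Egr2 pairs were the only learning peaks 1 to 10 kb from a member. Egr3 (chr14:70077317-70082613) had 2 homecage peaks in its body, of 324 and 236 bp, and a 146 bp learning peak there, 864 bp from the nearer one. Its widest homecage peak, 691 bp, lay 1884 bp from the body. Its other learning peak, also 146 bp, lay 43073 bp away in Pebp4 and was 4631 bp from any homecage peak. Egr4 (chr6:85511121-85513589) had no peak of either list in its body. Its 12 homecage peaks included a 1041 bp peak in Fbxo41, and the nearest learning peak, 302 bp wide, lay 57138 bp away.

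**Figure D4:**
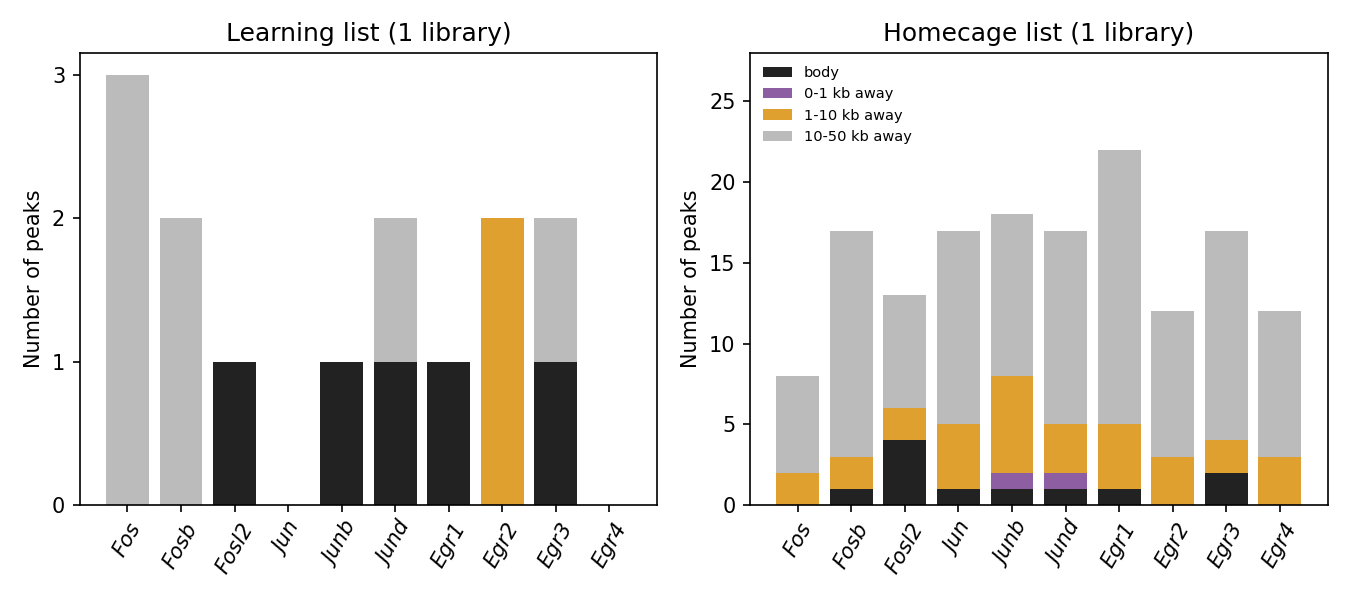
Number of peaks (y axis) per gene (x axis) in the learning list (left) and the homecage list (right), 1 library each, with the 2 panels on different scales. Colours divide the peaks by distance from the gene body. Of 14 learning peaks, 5 are in bodies, 2 at 1 to 10 kb and 7 at 10 to 50 kb, and of 153 homecage peaks the numbers are 11, 31 and 109, with 2 within 1 kb.

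A minority of the members' peaks were common to both lists, as in the windows of all protein-coding genes. By at least 1 bp, 5 of the 14 learning peaks were shared with the homecage list (35.7%, exact 95% interval 12.8 to 64.9%), and this interval held the 46.2% found for the 12096 learning peaks in windows of protein-coding genes. They belonged to Fosb, Jund, Egr1 and Egr2, 4 of 10 members against 37.0% of all genes with a shared learning peak. The homecage partner was wider in 4 of the 5 pairs. Requiring the overlap to cover 50% of both peaks left 2 pairs. The other 9 learning peaks lay 412 to 6800 bp from a homecage peak, with a median of 1262 bp, and 4 of them lay within 1 kb (44.4%). For the 6504 such peaks in windows of all protein-coding genes, the median was 1389 bp and 41.1% lay within 1 kb. From the other side, 5 of 153 homecage peaks (3.27%, 1.07 to 7.46%) overlapped a learning peak, compared with 2.50% in all windows.

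Learning peaks at the members were mostly narrower than homecage peaks. The 14 learning peaks had a median of 237 bp (146 to 707 bp), where that whole list has 306 bp. The 153 homecage peaks had a median of 399 bp (147 to 1762 bp), where that whole list has 351 bp. Of the learning peaks, 3 were 500 bp or wider, 2 at Fos and 1 at Jund, and none reached 1 kb. Of the homecage peaks, 52 were 500 bp or wider and 11 were 1 kb or wider. In the whole lists the upper quartile of width was 432 bp for learning and 498 bp for homecage. By family, the learning medians were 414 bp for Fos genes (6 peaks), 377 bp for Jun genes (3) and 199 bp for Egr genes (5), and the homecage medians were 450, 403 and 377 bp (38, 52 and 63 peaks). With so few learning peaks these differences between families were not tested.

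**Figure D5:**
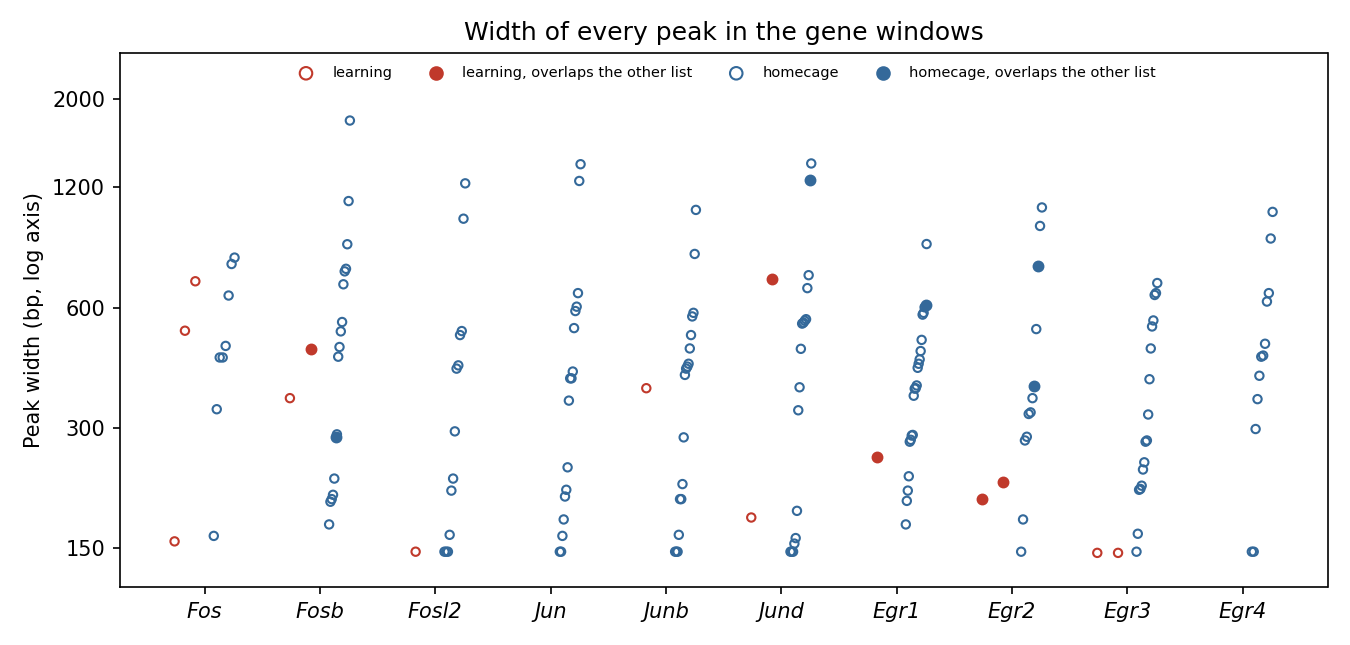
Width in bp (log axis) of every peak in the window of each gene, red for the learning list and blue for the homecage list, ordered by width within a gene. Filled circles are peaks that overlap a peak of the other list. The 14 learning peaks lie between 146 and 707 bp, and the widest homecage peak, 1762 bp, is in the Fosb window.

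Cover of the window placed the genes in different orders in the 2 lists. In the learning list Fos was followed by Jund (0.861%), Fosb (0.771%), Egr2 (0.389%), Junb (0.370%), Egr3 (0.277%), Egr1 (0.245%) and Fosl2, with Jun and Egr4 at 0. In the homecage list Fosb was followed by Egr1, Jund (8.12%), Jun, Junb (7.07%), Egr3, Egr4, Egr2, Fosl2 and Fos. In each list 7 of the 10 members were above the gene median. By strand, known for 8 members, 3 learning peaks lay upstream and 5 downstream of a body, and 57 homecage peaks lay upstream and 49 downstream. Many peaks of the windows lay closer to other genes: 5 of 14 learning peaks and 88 of 153 homecage peaks had another protein-coding gene nearer than the member. Distance alone does not show which gene a peak belongs to. At the 50 kb limit, the farthest learning peak inside lay 43073 bp from Egr3 (146 bp wide) and the nearest outside 57138 bp from Egr4. For the homecage list these were 48882 bp at Egr2 (279 bp) and 50037 bp at Fos (438 bp).

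Peaks at the starts of genes that work with the members were counted in 3 lists, which were not compared with each other. Among 15 AP-1 partners, 4 had a learning peak and 7 a homecage peak at a start, and Atf2, Atf4 and Jdp2, all leucine zipper proteins that pair with Jun, had both. Jdp2, the neighbour of Fos, had the widest learning peak of this list in a gene body (479 bp), and Mafk, a small Maf protein, the widest homecage peak (2675 bp). Among 5 Egr co-regulators, Nab2, a co-repressor that binds Egr proteins, and Sp3 had a peak in both lists at a start, and 4 of 5 had a homecage peak there. The widest peaks of that list in both libraries, 896 and 2898 bp, overlapped the end of the Nab2 body and ran beyond it. Among 21 upstream activators, 11 had a learning peak and 15 a homecage peak at a start. Both were present at 9: Srf, Elk4, Mrtfb, Crem, Crebbp, Ep300, Mapk3, Mef2a and Mef2d. Srf encodes the factor that binds the CArG box, and Crebbp and Ep300 encode CBP and p300. The widest peaks in a body were at Mef2a for learning (1862 bp) and at Ep300 for homecage (1693 bp). These counts are read against 16.2% of genes for learning, 53.1% for homecage and 14.0% for both, and the members themselves had 2, 5 and 2 of 10.

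Peaks do not measure expression, so the labelled tissue could not be checked by transcripts. A homecage peak lay in the body of 7 of 7 neuronal marker genes, 6 of 8 glial and vessel markers and 4 of 6 markers of other organs, and a learning peak in 1, 3 and 1. These counts do not tell hippocampus from other tissue.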

How the data were processed

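The authors deposited 1 list of broad peaks per antibody library, with 4 columns (chromosome, start, end, peak name). The peak names give a p-value threshold of 0.01. The submitters' processing notes name Trimmomatic, BWA, MACS2 and mm10, without settings, and use of an input control is not given in the sources used here. The deposited lists carry no score, fold or p-value per peak. Starts were converted to 1-based positions. Gene bodies came from a RefSeq table of GRCm38.p6, the assembly behind mm10, and strands and starts from RefSeq promoter sequences, matched for 17492 of 21887 protein-coding genes. Either gene end served for the rest. Peaks on chromosomes 1 to 19, X and Y were used. Peaks overlapped if they shared 1 bp. Intervals are exact Clopper-Pearson 95% intervals and cover counting error only.

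All 10 members are named, with every learning peak, the homecage peaks in or within 1 kb of a body, and the widest of the rest. Partner genes are named where both lists had a peak at a start or a peak was the list's widest in a body. The members and lists were chosen with earlier results of these data known. Other flanks, widths, overlaps, merging of near peaks and a shortened homecage list were tried as alternatives. Overlap counting was tested on simulated data. Counts were made in Python 3.11.15 with pandas 2.3.3 and numpy 2.4.6, intervals with scipy 1.17.1, and figures with matplotlib 3.10.9.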

Additional observations from a re-analysis of the deposited data

How the results depend on the processing

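Of 49 recomputed values for 10 results, 27 stayed within 1.5 times the reported count (or the interval of the ratio) and 22 moved beyond it. With a flank of 10 kb there were 7 learning and 44 homecage peaks, a ratio of 6.29. With 100 kb there were 29 learning peaks, 10 of them shared, and 301 homecage peaks. Counting only peaks nearest to the member left 9 learning peaks, 2 shared, and 65 homecage peaks. With peaks of at least 500 bp there were 3 learning peaks, 1 shared, and 52 homecage peaks, and 2 members had a learning peak in the window, 1 in the body and 0 at a start. Overlap of 50% of both peaks left 2 shared. The widest homecage peaks, as many as the learning list holds, numbered 13 in the windows, a ratio of 0.929, with 1 shared learning peak. With this shortened list, 2 members had a homecage peak in the body and 2 had one at a start. Within 3 kb of a start, 5 members had a learning peak. Shares and ratios over all genes were computed at the main settings only, so the recomputed counts and ratios have none beside them. Use of either gene end for all members was chosen after seeing the data. No paired analysis was possible because learning and homecage were each represented by a single antibody library, and for the same reason no replicate could be left out. Peak strength and depth are unknown, so no peak can be weighed by its reads.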
